A study of Mus musculus with 36 samples.

Results

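Smpd3, Has2, Ccbe1 and Nsg2 are 4 genes of the mouse forelimb whose change in CTCF site mutants differed between the distal and the proximal part of the limb. They were chosen for that difference, by name, from the deposited expression tables, and are 4 of 50833 genes in the count table. Their values are therefore described here with errors and without a test, and tests are given for other genes. RNA was sequenced from forelimbs of E12.5 embryos of the strain B6CBAF1, with distal tissue (the future digits) and proximal tissue (the arm) dissected apart. The genotypes were 5 alleles made with CRISPR/Cas9 and the wild type (WT). The alleles lack CTCF binding sites (CBS) of the Hoxd cluster, by name a run that grows with each one: Del(CBS1) is followed by Del(CBS1-2) and then by Del(CBS1-3), while Del(CBS1-4) and at last Del(CBS1-5) take more. Each genotype had 3 libraries per tissue, 36 in all. Each library comes from the limb pair of 1 embryo, so the SD is that between embryos. The labels state neither the number of founder lines nor the dose of an allele, and as the deletions take away binding sites, no transcript in these libraries checks the labels directly.

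The genes act in separate processes. Smpd3 encodes neutral sphingomyelinase 2, a membrane enzyme that cleaves sphingomyelin into ceramide and phosphocholine and that is needed in mice for normal mineralization of cartilage and bone. Has2 encodes the main hyaluronan synthase of the embryo, which spins a long sugar chain into the extracellular space. Mouse limbs that lack it form short skeletal elements and misplaced digits. Ccbe1 encodes a secreted matrix protein that helps to process the growth factor VEGF-C and is required for the budding of lymphatic vessels. Nsg2 encodes a small endosomal membrane protein known mainly from neurons, where it takes part in receptor trafficking.

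On mm10, Smpd3 (ENSMUSG00000031906) spans chr8:106252548-106337988 and Has2 (ENSMUSG00000022367) spans chr15:56665627-56694539, both on the minus strand. Nsg2 (ENSMUSG00000020297) is on the plus strand. None of the 4 genes lies on the chromosome of the Hoxd cluster.

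Nsg2 spans chr11:32000463-32059202. Of the 4 genes, 1 had a promoter window in the RefSeq table (GRCm38.p6, windows of 300 bases around a transcript start). The upstream one of the 2 Nsg2 windows, chr11:32000169-32000468 on the plus strand, is shown because Nsg2 is the member that was higher in mutant distal tissue. Its capitals mark matches to the E-box CANNTG, which was picked after the sequence was seen.
Nsg2 promoter: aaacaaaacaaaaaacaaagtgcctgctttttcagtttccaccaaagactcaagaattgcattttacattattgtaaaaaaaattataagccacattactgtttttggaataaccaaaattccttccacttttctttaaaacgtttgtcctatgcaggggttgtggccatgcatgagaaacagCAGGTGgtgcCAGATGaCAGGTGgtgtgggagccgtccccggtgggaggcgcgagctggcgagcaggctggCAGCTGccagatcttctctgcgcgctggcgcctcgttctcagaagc
The window held 4 E-box matches that do not overlap each other, and 72.3% of 32851 windows of the same length held at least 1. Searched on both strands, it held 0 matches to CAATAAA, the letters preferred by HOX13 proteins, which 4.6% of windows hold.

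Levels are given as CPM, read counts scaled to library size with edgeR's TMM factors over all 36 libraries, whose totals ran from 11062069 to 17727891 counts. To compare genes with each other, the deposited FPKM values, which are per transcript length, are used. In WT tissue Has2 had the highest FPKM of the 4 genes, 16.0 ± 0.387 in distal and 5.72 ± 0.710 in proximal libraries (SD, n = 3 each). Nsg2 followed with 3.01 ± 0.490 FPKM in distal and 5.98 ± 0.199 in proximal WT libraries, and Ccbe1 with 0.707 ± 0.308 and 0.930 ± 0.0815 FPKM. Smpd3 was the lowest, at 0.139 ± 0.0436 FPKM in distal and 0.257 ± 0.1198 in proximal WT libraries. The tissue labels were checked with marker lists. A list of 8 distal mesenchyme genes summed to 2012 to 2474 CPM in distal libraries of all genotypes, against 159 to 494 CPM in proximal ones. A list of 7 proximal mesenchyme genes summed to 190 to 266 CPM in distal libraries, against 646 to 1053 CPM in proximal ones.

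Averaged over the 6 genotypes, Has2 was the 1 member that was higher in distal tissue. This average holds the mutant values on which the genes were chosen, so it has no test. Has2 was higher in distal tissue by 1.22 ± 0.05 on the log2 scale (SE), with the distal library above the proximal one in 18 of 18 embryos. Ccbe1 was lower in distal tissue by 0.89, a log2 ratio of -0.89 ± 0.06, with distal above proximal in 0 of 18 embryos. Smpd3 had a log2 ratio of distal over proximal of -2.13 ± 0.23, with distal higher in 4 of 18 embryos, and Nsg2 one of -0.43 ± 0.06, with distal higher in 5 of 18. Across all 16292 genes tested, edgeR's quasi-likelihood test called 68.6% between the tissues (Benjamini-Hochberg adjusted p under 0.05). Without Del(CBS1-2) and Del(CBS1-4) the mean of the other 4 genotypes was -0.82 ± 0.28 for Smpd3, 1.53 ± 0.06 for Has2, -0.51 ± 0.08 for Ccbe1 and -0.67 ± 0.07 for Nsg2, so much of the average for Smpd3 rests on these 2 alleles. In bulk tissue, fewer cells of a type and less RNA per cell cannot be told apart.

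**Figure D1:**
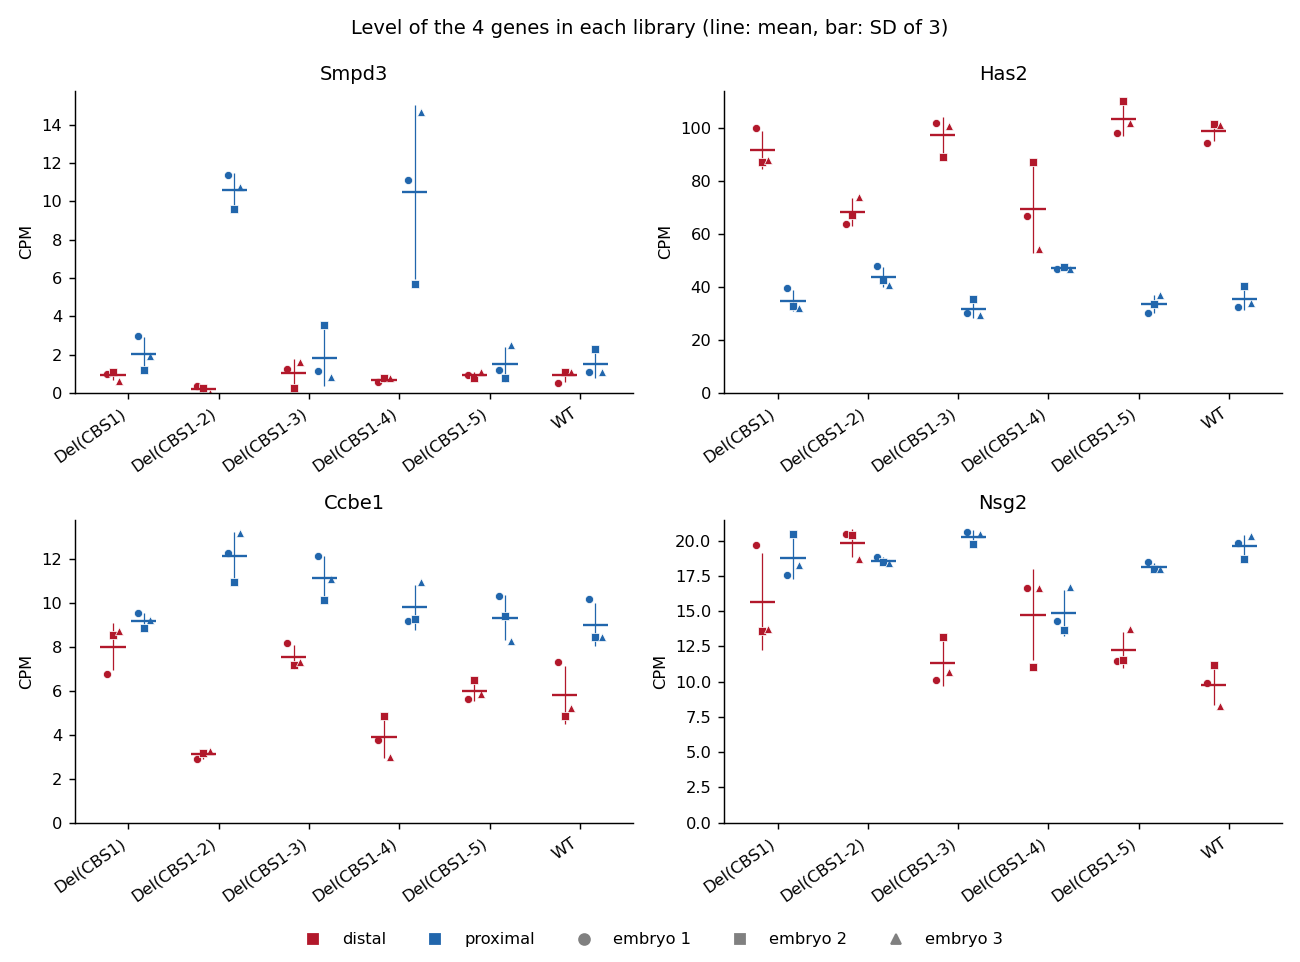
Level of Smpd3, Has2, Ccbe1 and Nsg2 in CPM (linear axes from 0) in each of the 36 libraries, by genotype, with distal libraries in red and proximal ones in blue. Marker shapes stand for embryos 1 to 3, lines for the mean and bars for the SD of 3 libraries. For Smpd3 in proximal tissue, Del(CBS1-2) and Del(CBS1-4) stand apart from the other genotypes. They average 10.6 and 10.5 CPM there, against 1.497 CPM in WT. For Nsg2, with groups ordered by mean, the libraries of neighbouring groups overlap in all 11 steps.

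Smpd3 was low in distal tissue of every genotype and was high in proximal tissue of 2 alleles. In proximal Del(CBS1-2) libraries it had 11.4, 9.59 and 10.7 CPM, and in proximal Del(CBS1-4) libraries 11.1, 5.66 and 14.7 CPM, against 1.09, 2.31 and 1.09 CPM in proximal WT libraries. All 6 mutant libraries lay above all 3 WT libraries, with log2 fold changes of 2.79 ± 0.46 for Del(CBS1-2) and 2.78 ± 0.47 for Del(CBS1-4) (SE). These are fitted folds of 6.91 and 6.85 over WT.

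In distal tissue the same gene had 0.352, 0.286 and 0 CPM in Del(CBS1-2) libraries, from 5, 5 and 0 reads. There were 0.547, 1.11 and 1.12 CPM in distal WT libraries, from 8, 16 and 18 reads. The 3 mutant libraries lay below all WT libraries, at a log2 fold change of -2.12 ± 0.66, and in the library with 0 reads a count of 3 would be 0.188 CPM. The distal Del(CBS1-4) libraries (0.570, 0.773 and 0.764 CPM) lay within the WT range, at -0.40 ± 0.55. The distal and proximal changes of Smpd3 were therefore opposed without overlap in Del(CBS1-2), and in Del(CBS1-4) the proximal change stood alone. The distal change minus the proximal one was -4.89 ± 0.87 for Del(CBS1-2) and -3.18 ± 0.78 for Del(CBS1-4) on the log2 scale.

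The other 3 alleles stayed near WT for Smpd3. Their proximal group means were 2.03 ± 0.877 CPM in Del(CBS1), 1.85 ± 1.47 in Del(CBS1-3) and 1.49 ± 0.916 in Del(CBS1-5), against 1.497 ± 0.703 CPM in WT (SD, n = 3 each). Embryo 2 of Del(CBS1-3) was an exception within its group, with 3.54 CPM in proximal tissue, against 1.15 and 0.853 CPM in the other 2 embryos. The same embryo had 0.247 CPM in distal tissue, against 1.26 and 1.62 CPM in the other 2.

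Has2, a well expressed gene, was lower in distal and higher in proximal tissue of the same 2 alleles. In distal tissue it had 63.9, 67.3 and 74.0 CPM in Del(CBS1-2) libraries and 66.9, 87.4 and 54.5 CPM in Del(CBS1-4) libraries, against 94.6, 101 and 101 CPM in WT libraries. In proximal tissue it had 48.0, 42.9 and 40.7 CPM in Del(CBS1-2) libraries and 46.7, 47.6 and 46.9 CPM in Del(CBS1-4) libraries, against 32.4, 40.2 and 34.0 CPM in WT libraries. In each tissue all 6 mutant libraries were on the same side of all 3 WT libraries, in proximal tissue by a narrow margin, as 1 WT library had 40.2 CPM and 1 Del(CBS1-2) library 40.7 CPM.

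The distal log2 fold changes of Has2 were -0.56 ± 0.12 in Del(CBS1-2) and -0.51 ± 0.12 in Del(CBS1-4), and the proximal ones 0.30 ± 0.10 and 0.40 ± 0.10. As folds, distal Has2 was at 0.680 times WT in Del(CBS1-2) and 0.702 times in Del(CBS1-4), and proximal Has2 at 1.23 and 1.32 times. The distal change minus the proximal one was -0.83 ± 0.16 for Del(CBS1-2) and -0.91 ± 0.16 for Del(CBS1-4). Even so, distal Has2 in these alleles stayed above proximal Has2, with 0 overlap between 54.5 CPM, the lowest distal library, and 48.0 CPM, the highest proximal one. The log2 fold changes of the other 3 alleles ran from -0.11 to 0.05 in distal and from -0.17 to -0.03 in proximal tissue. Their SEs were 0.11 in distal and 0.10 in proximal tissue.

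Ccbe1 (ENSMUSG00000046318, chr18:66056855-66292667 on the minus strand), the lymphatic growth factor regulator, was lower in distal tissue of both alleles and higher in proximal tissue of 1 of them. The distal values were 2.89, 3.15 and 3.27 CPM in Del(CBS1-2) and 3.78, 4.85 and 2.99 CPM in Del(CBS1-4), against 7.31, 4.86 and 5.23 CPM in WT. The distal log2 fold change was -0.92 ± 0.19 in Del(CBS1-2), without overlap, and -0.58 ± 0.19 in Del(CBS1-4), where the highest mutant library (4.85 CPM) lay just below the lowest WT library (4.86 CPM). Proximal Ccbe1 had 12.3, 10.9 and 13.2 CPM in Del(CBS1-2), against 10.1, 8.42 and 8.44 CPM in WT, a log2 fold change of 0.43 ± 0.13 without overlap. In proximal Del(CBS1-4) libraries it had 9.16, 9.25 and 10.95 CPM, which overlapped WT, at 0.12 ± 0.13.

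The distal change of Ccbe1 minus the proximal one was -1.33 ± 0.22 in Del(CBS1-2) and -0.70 ± 0.22 in Del(CBS1-4). In Del(CBS1) and Del(CBS1-3) distal Ccbe1 was above the WT mean, with 8.001 ± 1.082 and 7.54 ± 0.534 CPM against 5.80 ± 1.32 CPM in WT (SD, n = 3 each). Those ranges overlapped that of WT, because WT embryo 1 had 7.31 CPM. Without that WT library the distal log2 fold changes were 0.66 in Del(CBS1) and 0.56 in Del(CBS1-3), against 0.47 and 0.36 with it, and -0.39 in Del(CBS1-4), against -0.58 with it.

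Nsg2 was the member with the reverse direction, higher in mutant distal tissue. It had 20.4, 20.4 and 18.7 CPM in distal Del(CBS1-2) libraries and 16.6, 11.04 and 16.6 CPM in distal Del(CBS1-4) libraries, against 9.91, 11.2 and 8.29 CPM in distal WT libraries. All 3 Del(CBS1-2) libraries and 2 of 3 Del(CBS1-4) libraries lay above WT, with log2 fold changes of 0.997 ± 0.17 and 0.59 ± 0.17. Distal Nsg2 was also above all WT libraries in all 3 libraries of Del(CBS1) (19.7, 13.6 and 13.7 CPM, 0.67 ± 0.17) and of Del(CBS1-5) (11.4, 11.5 and 13.7 CPM, 0.31 ± 0.18). Of the 4 genes it was the only one whose distal change had the same sign in all 5 alleles, with 0.19 ± 0.18 in Del(CBS1-3).

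In proximal tissue Nsg2 was lower in Del(CBS1-4) and within 0.11 of WT on the log2 scale in the other alleles. It had 18.9, 18.5 and 18.4 CPM in proximal Del(CBS1-2) libraries and 14.3, 13.6 and 16.7 CPM in proximal Del(CBS1-4) libraries, against 19.8, 18.7 and 20.3 CPM in proximal WT libraries. The Del(CBS1-2) libraries overlapped WT, at -0.08 ± 0.09, and the Del(CBS1-4) libraries lay below WT, at -0.40 ± 0.09. The proximal Del(CBS1-5) libraries (18.46, 17.99 and 17.998 CPM) were also all below WT, by a small step of -0.11 ± 0.09. The distal change minus the proximal one was 1.10 ± 0.19 in Del(CBS1-2), 0.99 ± 0.19 in Del(CBS1-4), 0.74 ± 0.19 in Del(CBS1), 0.43 ± 0.20 in Del(CBS1-5) and 0.16 ± 0.20 in Del(CBS1-3).

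**Figure D2:**
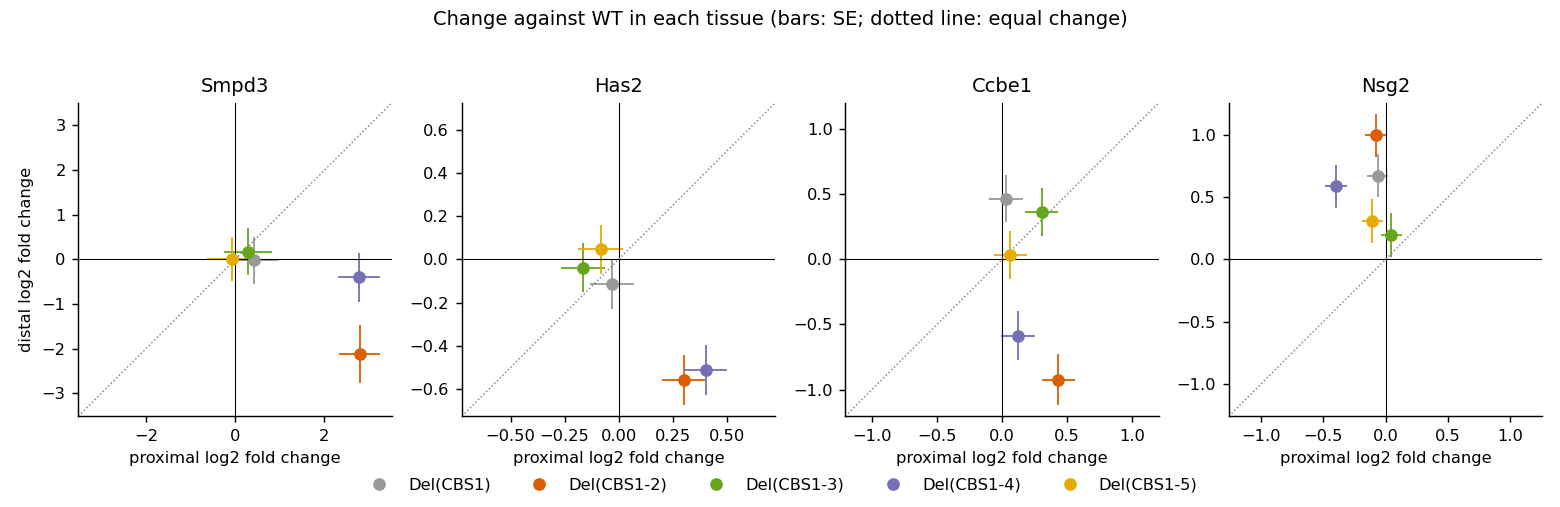
Log2 fold change of each allele over WT in distal tissue (vertical axis) against that in proximal tissue (horizontal axis), with bars for the SE and 1 panel per gene with its own scale. A point on the dotted line has the same change in both tissues. Del(CBS1-2) and Del(CBS1-4) lie at the lower right for Smpd3, Has2 and Ccbe1, and to the upper left for Nsg2, and the 3 other alleles lie nearer to 0 for Smpd3 and Has2.

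A change that was opposed in the strict sense, with both tissues free of overlap with WT and of opposite sign, was found in 5 of the 20 pairs of gene and allele. These were Smpd3, Has2 and Ccbe1 in Del(CBS1-2), Has2 in Del(CBS1-4) and Nsg2 in Del(CBS1-5). In the other pairs, libraries of at least 1 tissue overlapped WT or the signs were the same. Nsg2 in Del(CBS1-4) missed the condition by 1 distal library, with 11.04 CPM against 11.18 CPM in the highest WT library, and its fitted changes had opposite signs. Among 15047 genes tested in both tissues, 1.05% were opposed in this sense in Del(CBS1-2), where 3 members were. The shares were 0.352% in Del(CBS1-4) and 0.439% in Del(CBS1-5), with 1 member each, and 0.106% in Del(CBS1) and 0.253% in Del(CBS1-3), with 0 members.

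Within each tissue, distal libraries did not overlap WT in either direction for 4 members in Del(CBS1-2), beside 29.9% of all genes, and for 2 in Del(CBS1-4), beside 17.3%. They did so for Nsg2 alone in Del(CBS1), beside 12.9% of genes, and in Del(CBS1-5), beside 14.5%, and for 0 members in Del(CBS1-3), beside 16.1%. Proximal libraries did not overlap WT for 3 members in Del(CBS1-2), beside 25.8% of genes, and for 3 in Del(CBS1-4), beside 15.9%. In Del(CBS1-5) this held for Nsg2, beside 11% of genes, and for 0 members in Del(CBS1) and Del(CBS1-3), beside 10.9% and 16.9%. The members were chosen on these values, and nothing is read from their counts.

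In the fits across all genes, an adjusted p under 0.05 (edgeR, Benjamini-Hochberg) for a distal change unlike the proximal one was reached by 8 of 16292 genes in Del(CBS1-2), or 0.0491%, and by 3 genes in Del(CBS1-4), or 0.0184%. The members have no test of this contrast, which chose them. They were not taken out of the genes counted, so these counts are not a background free of the members. With the embryo as a replicate block the counts were 116 and 7. The count of 8 moved to 0 when 1 of 3 libraries was left out (proximal WT embryo 3, distal Del(CBS1-2) embryo 1 or proximal Del(CBS1-2) embryo 1). In Del(CBS1-3) 0.00614% of genes passed, and in Del(CBS1) and Del(CBS1-5) 0%, where edgeR gave 345 and 966 genes at an unadjusted p under 0.05, and both DESeq2 and limma called 0. Within distal tissue 10.5% of genes passed in Del(CBS1-2), 0.0325% in Del(CBS1), 0.00651% in Del(CBS1-3), 0.0846% in Del(CBS1-4) and 0.0651% in Del(CBS1-5). Within proximal tissue 0.721% passed in Del(CBS1-2), 0.0443% in Del(CBS1), 0.0696% in Del(CBS1-3) and 0.0696% in Del(CBS1-5). In proximal Del(CBS1-4), 0% of genes passed in edgeR, with 2229 at an unadjusted p under 0.05, while DESeq2 called 98 and limma 0.

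The comparison within embryos shows the same values without pooling. In each embryo the distal library minus the proximal library of Has2 was 0.41 to 0.86 on the log2 CPM scale in Del(CBS1-2) and 0.22 to 0.88 in Del(CBS1-4), against 1.33 to 1.57 in WT. The Smpd3 difference was -6.27 to -4.51 in Del(CBS1-2) and -4.03 to -2.67 in Del(CBS1-4), against -0.97 to 0.04 in WT. For Ccbe1 the mean difference was -1.92 in Del(CBS1-2) and -1.33 in Del(CBS1-4), against -0.64 in WT, and neither allele overlapped WT. For Nsg2 it was 0.09 in Del(CBS1-2) and -0.03 in Del(CBS1-4), against -1.002 in WT, so the tissues of these mutants were nearly level.

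**Figure D3:**
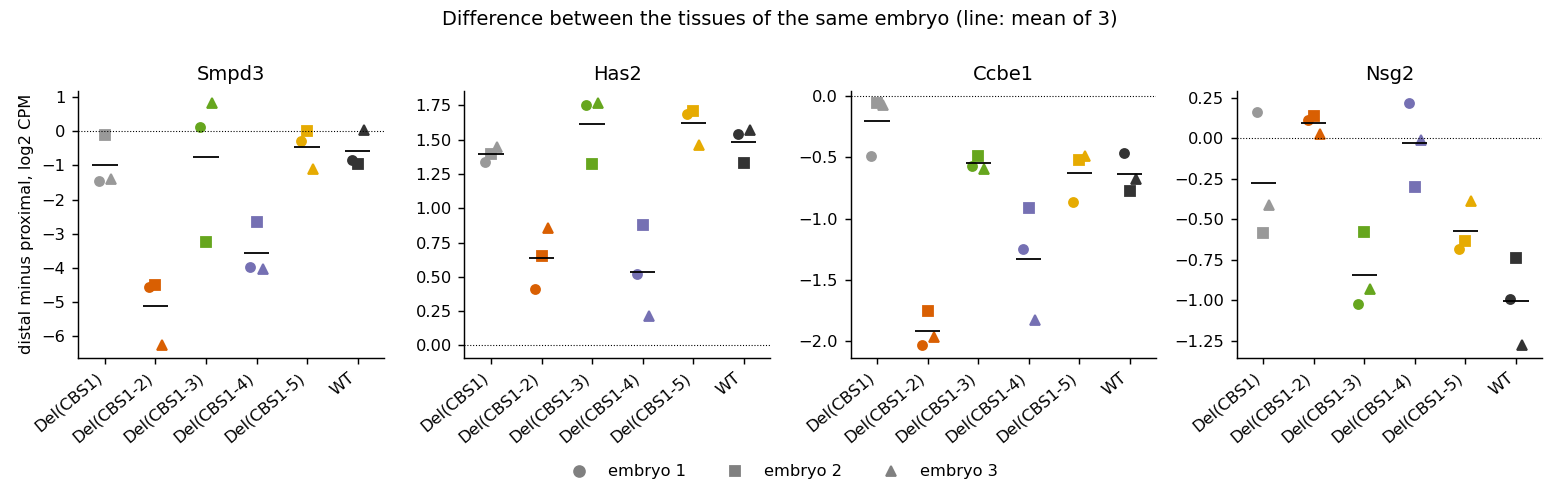
Distal minus proximal log2 CPM in the same embryo, for each gene and genotype, with 3 embryos per genotype and lines for their mean. The dotted line at 0 marks equal levels in both tissues. All 6 Del(CBS1-2) and Del(CBS1-4) embryos lie below all 3 WT embryos for Smpd3, Has2 and Ccbe1, and above them for Nsg2.

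Del(CBS1-2) and Del(CBS1-4) were set against the same 3 WT libraries in each tissue, and so were the other alleles, so the fold changes of a gene share the error of the WT mean. Del(CBS1-3) and Del(CBS1-5), which by name lack more sites than Del(CBS1-2), had levels nearer to WT for Smpd3 and Has2. For Smpd3 the 12 groups ran from 0.213 CPM in distal Del(CBS1-2) to 10.6 CPM in proximal Del(CBS1-2), and the libraries of neighbouring groups overlapped in 9 of the 11 steps. The gaps lay above distal Del(CBS1-2) and below proximal Del(CBS1-4). Has2 ran from 31.8 CPM in proximal Del(CBS1-3) to 103 CPM in distal Del(CBS1-5), with gaps between proximal WT and proximal Del(CBS1-2), and between proximal Del(CBS1-4) and distal Del(CBS1-2). Ccbe1 ran from 3.10 CPM in distal Del(CBS1-2) to 12.1 CPM in proximal Del(CBS1-2), with gaps between distal Del(CBS1-4) and distal WT, and between distal Del(CBS1-5) and distal Del(CBS1-3). For Nsg2, from 9.79 CPM in distal WT to 20.3 CPM in proximal Del(CBS1-3), all 11 steps overlapped.

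Embryos of Del(CBS1-4) differed among themselves. Embryo 2 lay nearest to the WT mean in 5 of the 8 pairs of gene and tissue, with 5.66 CPM of proximal Smpd3, 87.4 CPM of distal Has2, 4.85 CPM of distal Ccbe1 and 11.04 CPM of distal Nsg2. It lay farthest from the WT mean in proximal tissue for Has2, at 47.6 CPM, and for Nsg2, at 13.6 CPM. Without its distal library the distal log2 fold change was -0.71 for Has2 and -0.78 for Ccbe1, against -0.51 and -0.58 with all libraries. Without the distal library of embryo 3, that of Has2 was -0.36. Embryo 2 was the 1 male of the group by sex-linked transcripts, beside 2 females, and all 3 Del(CBS1-2) embryos were female, against 2 females and 1 male in WT. With the sex of the embryo in the fit, every change of the 4 genes in the 15 comparisons against WT or between tissues moved by less than the spread between replicates.

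Summed markers of other cell types lay outside the WT range in the same 2 alleles, and some in further alleles. Cartilage genes (14 of 14 in the table) summed to 3284 to 3450 CPM in distal Del(CBS1-2) libraries and 2849 to 3440 CPM in distal Del(CBS1-4) libraries, against 2156 to 2490 CPM in distal WT libraries. In proximal tissue they summed to 5867 to 6012 CPM in Del(CBS1-2) and 4993 to 7125 CPM in Del(CBS1-4), against 4359 to 4665 CPM in WT. Both tissues were thus above WT. Tendon and connective tissue genes (8 of 9) were above WT in both tissues too, at 702 to 962 CPM in distal Del(CBS1-2) and 685 to 1036 CPM in distal Del(CBS1-4), against 586 to 645 CPM in distal WT. Their proximal sums were 3652 to 4272 CPM in Del(CBS1-2) and 2983 to 4174 CPM in Del(CBS1-4), against 2788 to 2931 CPM in WT.

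Skeletal muscle genes (12 of 12) were at 82.4 to 159 CPM in distal Del(CBS1-2) and 44.1 to 136 CPM in distal Del(CBS1-4), against 39.8 to 41.3 CPM in distal WT. Proximal muscle sums were 2955 to 3234 CPM in Del(CBS1-2) and 2145 to 2944 CPM in Del(CBS1-4), against 2155 to 2557 CPM in WT. Erythroid genes (6 of 7) were below WT in distal tissue, at 1766 to 1866 CPM in Del(CBS1-2) and 1599 to 1951 CPM in Del(CBS1-4), against 2083 to 2712 CPM in WT. In proximal tissue they were at 1478 to 1548 CPM in Del(CBS1-2) and 1288 to 1769 CPM in Del(CBS1-4), against 1535 to 1861 CPM in WT. In proximal Del(CBS1-3) and Del(CBS1-5) all erythroid sums were above WT, at 1901 to 2288 CPM and 2424 to 2555 CPM. Distal muscle sums of Del(CBS1-5) were all below WT, at 21.2 to 36.5 CPM. Of single markers tested in distal Del(CBS1-2), 6 of 14 cartilage, 2 of 12 muscle and 1 of 8 tendon genes rose and 1 of 6 erythroid genes fell (edgeR), beside 10.5% of all genes called there. Of 10 ectoderm genes 2 rose and 1 fell there, and of 8 distal mesenchyme genes 1 rose and 2 fell. Among the other lists, 1 of 5 Schwann cell and 1 of 7 proximal mesenchyme genes rose. In distal Del(CBS1-4), and in proximal tissue of both alleles, none of the listed markers was called (edgeR). The sum of the ectoderm genes (10 of 10 in the table) was above all WT libraries in distal tissue of 4 alleles. Their median log2 fold change was only 0.12 in distal Del(CBS1-2) and 0.06 in distal Del(CBS1-4). They summed to 484 to 577 CPM in Del(CBS1), 568 to 665 CPM in Del(CBS1-2), 475 to 569 CPM in Del(CBS1-3) and 532 to 569 CPM in Del(CBS1-4), against 454 to 465 CPM in WT. Proximal mesenchyme genes (7 of 7) were above WT in distal Del(CBS1), at 218 to 247 CPM, and in distal Del(CBS1-2), at 221 to 254 CPM, against 193 to 209 CPM in WT. No listed marker was at 0 in a whole group, and the part of these tissues in the changes of the 4 genes was not tested.

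Lists for lymphatic vessels, whose budding requires Ccbe1, and for neurons, from which Nsg2 is mainly known, overlapped WT in distal tissue of both alleles. The cells that made Ccbe1 and Nsg2 here are not known, and the part of these cell types in their changes was not tested. Lymphatic endothelium genes (5 of 5) summed to 38.1 to 47.5 CPM in distal Del(CBS1-2) and 40.3 to 44.2 CPM in distal Del(CBS1-4), against 38.2 to 47.2 CPM in distal WT. In proximal tissue they were at 112 to 117 CPM in Del(CBS1-2) and 85.5 to 118 CPM in Del(CBS1-4), against 89.2 to 108 CPM in WT, so all 3 Del(CBS1-2) libraries were above WT. The same held in proximal Del(CBS1-2) for the muscle, cartilage and tendon lists. It also held there for endothelium (511 to 549 CPM, against 447 to 463 CPM in WT) and ectoderm (550 to 589 CPM, against 367 to 488 CPM). Macrophage and leukocyte genes were above WT there too (82.9 to 96.6 CPM, against 68.9 to 82.7 CPM). Erythroid sums went the other way, with 2 of 3 libraries below all WT libraries. Neuron and axon genes (10 of 10) were at 20.2 to 30.0 CPM in distal Del(CBS1-2) and 24.0 to 31.7 CPM in distal Del(CBS1-4), against 21.0 to 36.4 CPM in distal WT. In proximal tissue neuron genes were at 46.4 to 54.3 CPM in Del(CBS1-2) and 49.9 to 54.5 CPM in Del(CBS1-4), against 38.7 to 46.4 CPM in WT, so all 3 Del(CBS1-4) libraries were above WT. In distal Del(CBS1-3) they were also above WT, at 41.5 to 48.2 CPM.

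**Figure D4:**
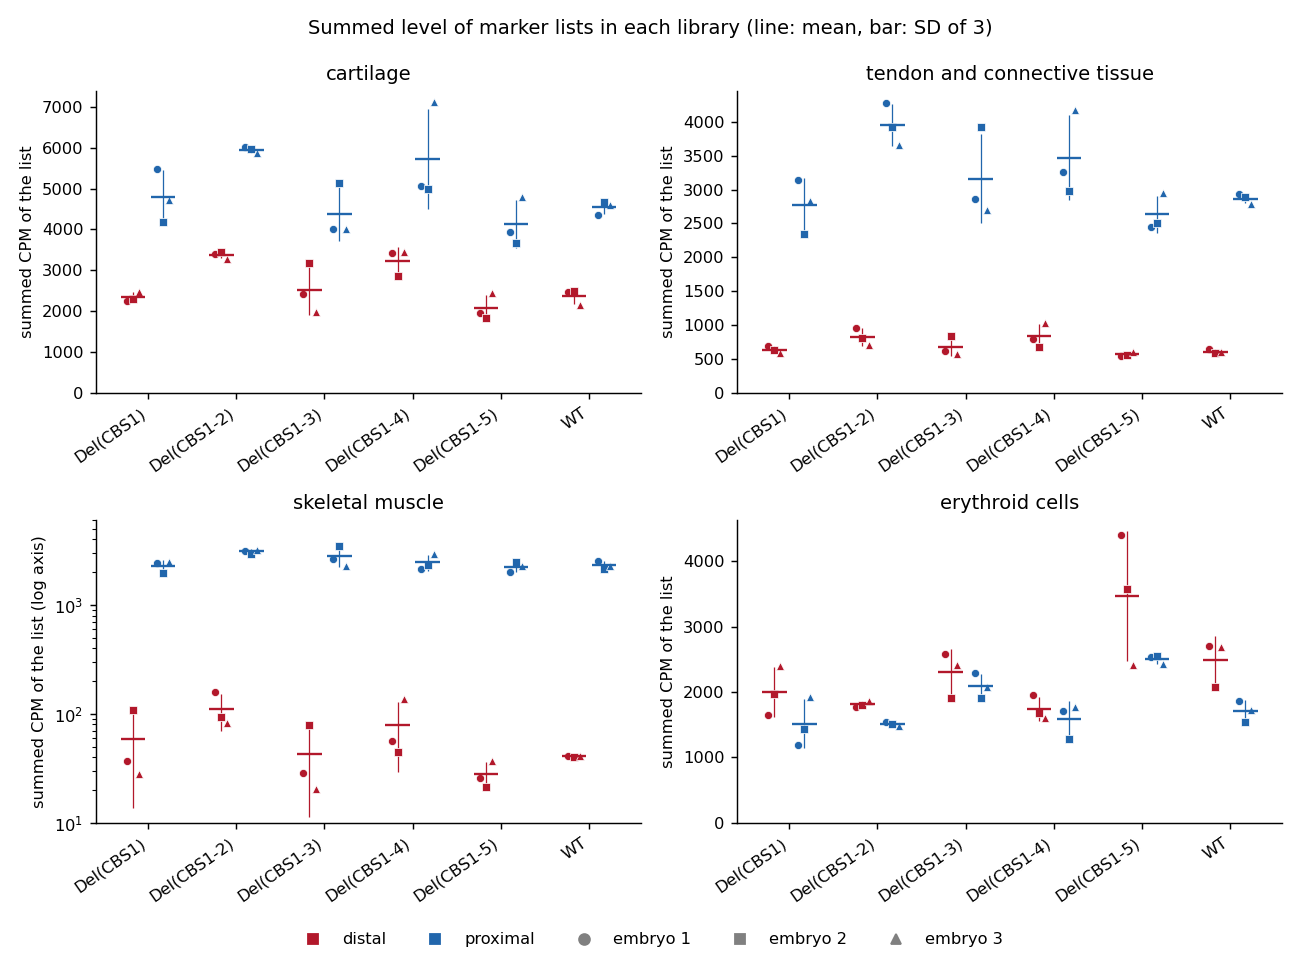
Summed CPM of 4 marker lists in each library by genotype, distal in red and proximal in blue, with lines for the mean and bars for the SD of 3 libraries; the muscle panel has a log axis and the others start at 0. Cartilage and tendon sums of Del(CBS1-2) and Del(CBS1-4) lie above WT in both tissues, for example at 3284 to 3450 CPM in distal Del(CBS1-2) against 2156 to 2490 CPM in distal WT for cartilage.

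None of the tested relatives of the 4 genes was called for a difference between its distal and proximal change (edgeR). The other sphingomyelinases Smpd1, Smpd2, Smpd4 and Smpd5 were more abundant than Smpd3, with 38.1 ± 3.01 FPKM of Smpd4 in distal and 29.7 ± 1.18 in proximal WT libraries (SD, n = 3 each). Their log2 ratios of distal over proximal were -0.22, 0.14, 0.26 and 0.77, all called (edgeR). Smpd5 rose in distal Del(CBS1-2) by 0.48 ± 0.15 (edgeR adjusted p = 0.04995), close to the threshold. Has1 had 0 reads in all 18 distal libraries and was too low to test, and Has3 did not pass between the tissues (-0.02 ± 0.09; edgeR adjusted p = 0.823). In proximal Del(CBS1-4) Has3 was at 5.18 ± 0.319 CPM, against 8.73 ± 2.29 CPM in WT (log2 -0.75 ± 0.19; edgeR adjusted p = 0.168), the opposite direction to proximal Has2. Distal Has3 was lower in this allele as well (-0.57 ± 0.23; edgeR adjusted p = 0.236), the direction of distal Has2. Neither change passed, nor did proximal Has3 in Del(CBS1-2) and Del(CBS1-3), at -0.47 ± 0.19 each. Nsg1, the endosomal relative of Nsg2, rose in distal Del(CBS1-2) by 0.16 ± 0.04 (edgeR adjusted p = 0.0283), with 118 ± 2.77 CPM against 104 ± 1.83 CPM in WT. Caly, the third member of that family, did not pass in the distal comparisons.

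The other genes of the pathways were counted against the shares over all genes, which were 68.6% between the tissues, 10.5% in distal Del(CBS1-2) and at most 0.721% in the other comparisons. Of 29 sphingomyelin and ceramide genes tested, 9 were higher and 15 lower in distal tissue (edgeR), led by the ceramide synthase Cers6 (log2 -0.39 ± 0.03) and the serine palmitoyltransferase subunit Sptlc3 (1.46 ± 0.13). The list's median log2 ratio was -0.07, beside -0.00052 over all genes. In 13 of the 15 other comparisons 0 of its genes were called (edgeR). The sphingomyelin synthase Sgms1, which works in the opposite direction to Smpd3, rose in distal Del(CBS1-2) by 0.45 ± 0.12, with 23.4 ± 3.01 CPM against 16.8 ± 1.79 CPM in WT (edgeR adjusted p = 0.0284). Sgms2, the synthase of the plasma membrane, rose in proximal Del(CBS1-2) by 1.05 ± 0.22, with 13.6 ± 1.35 CPM against 6.59 ± 0.215 CPM in WT (edgeR adjusted p = 0.0342). With any 1 of the 6 libraries left out, Sgms2 lost its call.

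Of 10 matrix mineralization genes, 4 were higher and 5 lower in distal tissue, with a median of -0.29, led by the osteoblast regulator Runx2 (-2.38 ± 0.08) and the mineralization inhibitor Mgp (-2.17 ± 0.13). In distal Del(CBS1-2) Mgp rose by 1.15 ± 0.27 (edgeR adjusted p = 0.015), and the phosphate transporter Slc20a1 fell by 0.18 on the log2 scale (edgeR adjusted p = 0.0226). Of 21 hyaluronan genes, 4 were higher and 11 lower distally, with a median of -0.23, led by Ugp2, which makes the UDP-glucose from which a hyaluronan precursor is derived (-0.83 ± 0.04), and the hyaluronan-binding proteoglycan Acan (-2.63 ± 0.14). In distal Del(CBS1-2) the proteoglycan Bcan rose by 3.09 ± 0.55, with 1.77 ± 0.526 CPM against 0.197 ± 0.177 CPM in WT (edgeR adjusted p = 0.00389), and the hyaluronan receptor Hmmr fell by 0.23 on the log2 scale (edgeR adjusted p = 0.0289). DESeq2 gave Bcan a log2 fold change of 3.14 and no adjusted p.

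All 18 lymphangiogenesis genes were called between the tissues, 3 higher and 15 lower in distal tissue, with a median of -0.89, beside 68.6% of all genes called. Prox1, the lymphatic identity factor that is also made in muscle, had 3.801 ± 1.58 CPM in distal and 49.9 ± 7.65 CPM in proximal libraries (SD, n = 18 each; log2 -3.75 ± 0.10), and the integrin Itga9 had -1.27 ± 0.02. In distal Del(CBS1-2) the VEGF-C co-receptor Nrp2 fell by 0.47 on the log2 scale (edgeR adjusted p = 0.0315), with 426 ± 35.1 CPM against 583 ± 102 CPM in WT. Nrp2 lost its call in 5 of 6 fits with a library left out, all but the one without distal WT embryo 2. Of 15 genes of the Nsg family and receptor recycling, 6 were higher and 7 lower distally, with a median of -0.09, and the glutamate receptor scaffold Grip2 was lowest (-4.83 ± 0.16). Clstn1 (0.19 ± 0.04), Nsg1, Hap1 (0.81 ± 0.23) and the glutamate receptor subunit Gria1 (1.33 ± 0.41) rose in distal Del(CBS1-2) (edgeR), the direction of Nsg2. That made 4 of 14 genes tested there, or 28.6%, beside 10.5% of all genes. Of the 12 list genes called against WT, Bcan and Clstn1 kept their calls with each library left out, and the other 10 lost theirs in 2 to 6 of 6 such fits.

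Of the 92 genes of these 5 lists, 0 reached an adjusted p under 0.05 (edgeR) for a difference between the distal and the proximal change in any of the 5 alleles, and DESeq2 and limma called 0 as well. In this edgeR fit, which leaves out the pairing by embryo, the share over all genes was at most 0.0491%, so a count of 0 is the usual one for a list of this size. In Del(CBS1-2) the fit with the embryo as a block called 116 genes and DESeq2 102, with 0 list genes in each. At an unadjusted p under 0.05 (edgeR without the block) there were 9 list genes in Del(CBS1-2), 9 in Del(CBS1-4) and 1 to 5 in the other alleles. The list medians of that difference in Del(CBS1-2) ran from -0.12 for lymphangiogenesis to 0.02 for matrix mineralization, beside 0.02 over all genes.

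Genes with levels most like those of each member across the 36 libraries were found by Pearson correlation of log2 CPM among 11950 genes. Tissue and genotype are shared by all points, so the values are descriptive. Smpd3 was most like Nebl (r = 0.90), Sertad4 (0.88) and the cartilage matrix gene Comp (0.86). Within the 18 proximal libraries these were 0.92, 0.94 and 0.95, and within the 18 distal ones 0.47, 0.27 and 0.17. Has2 was most like Slc16a10 (0.97), Lmo7 (0.97) and the connexin Gja3 (0.96), Ccbe1 most like Cbln4 (0.91), Cnr1 (0.89) and Mylk (0.86), and Nsg2 most like Sim2 (0.83), Eya2 (0.81) and Cpe (0.81). The members were chosen for their changes in these same libraries, so likeness between them was partly set by that choice. Between members, Smpd3 and Has2 had r = 0.90 in proximal and 0.51 in distal libraries. Has2 and Ccbe1 had r = 0.78 in distal and 0.08 in proximal libraries. Nsg2 ran against Has2 in both tissues, with r = -0.69 in distal and -0.70 in proximal libraries.

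Nearby genes on the chromosome mostly showed no call. Of the 8 neighbours flanking the 4 genes, 7 had 0 calls in the 15 comparisons against WT or between tissues (edgeR), and Gm12108 near Nsg2 was too low to test in distal tissue. Pmaip1, a gene of the cell death programme 165866 bases from Ccbe1, had 1 call, in distal Del(CBS1-2) (log2 -0.96 ± 0.23; edgeR adjusted p = 0.0164), where Ccbe1 was lower too. Over all genes, 10.5% were called in that comparison. In proximal Del(CBS1-2) Pmaip1 was at -0.40 ± 0.22 (edgeR adjusted p = 0.333), while Ccbe1 was higher, at 0.43 ± 0.13. Lman1, 34275 bases from Ccbe1 on the other side, was at -0.00 ± 0.05 in distal Del(CBS1-2). The antisense gene Has2os overlaps Has2 and the 3′ end of Prmt7 meets that of Smpd3, and the counting is not stated to use strand, so reads in these overlaps cannot be assigned with certainty. Has2os was low in WT libraries, with 1.27 ± 0.165 CPM distally and 1.56 ± 0.550 CPM proximally. Its proximal log2 changes were 0.44 ± 0.31 in Del(CBS1-2) and 0.58 ± 0.31 in Del(CBS1-4). The distal ones were 0.12 ± 0.38 and -0.23 ± 0.40, and none of these was called (edgeR). Prmt7 differed little from WT in proximal tissue, at -0.07 ± 0.07 in Del(CBS1-2) and -0.13 ± 0.07 in Del(CBS1-4), where Smpd3 was high.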

How the data were processed

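RNA-seq of 36 libraries gave 2 deposited tables. The authors deposited whole-number read counts per Ensembl gene and Cufflinks FPKM values, per the file headers. Without giving roles, the submitters' processing notes list the build mm10 and the tools bedtools 2.27.1, STAR 2.7.0, Cufflinks 2.2.1 and cutadapt 1.16. Whether counting used strand is not given in the sources used here. TruSeq stranded libraries were read as single ends of 50 bases, per the labels' protocols. The count table holds no genes of chromosomes X, Y or M, so the scaling is autosomal. Groups came from the sample titles.

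Counts were fitted with edgeR 4.0.16 in R 4.3.3 (TMM, filterByExpr, quasi-likelihood F test, Benjamini-Hochberg over all genes, call at 0.05), in 3 fits: the 18 distal libraries (15361 genes), the 18 proximal ones (15813) and all 36 (16292). All 4 members passed the filter in each. SE is the log2 fold change over the root of F. Log2 CPM used a prior count of 2. The members and the lists (5 pathways, 12 cell types) were chosen with earlier results of these data known. Up to 4 called genes with the smallest p were named per list and comparison, the 3 most alike genes per member, both tested neighbours, and all paralogs. The test was first tried on simulated counts. Alternatives were DESeq2 1.42.0, no filter, limma 3.58.1 on log2(FPKM + 0.1) with a group mean of at least 0.5, a replicate block, the sex of the embryo, and each library left out. Same-numbered distal and proximal libraries pair: their deviations from group means correlated at 0.162 to 0.503 in 18 of 18 embryos, each distal library correlated best with its own number, and sex matched in 18 of 18. No replicate pair was as close as sampling noise (chi-square per degree of freedom 2.56 to 19.3). Intervals of single counts cover counting error only.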

Additional observations from a re-analysis of the deposited data

Results flagged for a closer look

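In 5 of the 20 pairs of gene and allele, every mutant library of 1 tissue lay on one side of all WT libraries and every mutant library of the other tissue on the opposite side. The difference between the tissues was not tested for these genes, because they were chosen for it. Smpd3 in Del(CBS1-2) had a distal change minus proximal change of -4.89 (log2), with distal values of 0 to 0.352 CPM against 0.547 to 1.12 CPM in WT and proximal values of 9.59 to 11.4 CPM against 1.09 to 2.31 CPM in WT. Has2 had -0.83 in Del(CBS1-2) and -0.91 in Del(CBS1-4), with proximal libraries of 40.7 to 48.0 CPM and 46.7 to 47.6 CPM against 32.4 to 40.2 CPM in WT. Ccbe1 had -1.33 in Del(CBS1-2). Nsg2 had 0.43 in Del(CBS1-5), where both changes were small, with distal libraries of 11.4 to 13.7 CPM against 8.29 to 11.2 CPM in WT and proximal libraries of 17.99 to 18.46 CPM against 18.7 to 20.3 CPM in WT. Of all genes tested in both tissues, 1.05%, 0.352% and 0.439% met the same condition in Del(CBS1-2), Del(CBS1-4) and Del(CBS1-5).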

How the results depend on the processing

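The average tissue difference kept its direction for the 4 genes under every alternative run, with ranges over left-out libraries of -2.20 to -1.98 for Smpd3, 1.19 to 1.24 for Has2, -0.92 to -0.86 for Ccbe1 and -0.46 to -0.40 for Nsg2. DESeq2, no filter, the replicate block and sex each left all 64 member values within the spread between replicates. On FPKM with limma, 3 moved (Smpd3 in Del(CBS1-2) and Del(CBS1-4) to -3.18 and -2.18, Ccbe1 in Del(CBS1) to 0.22, each a distal minus proximal change), and Smpd3 had no value in some fits. With single libraries left out, 605 member values stayed within that spread and 19 moved beyond it. Distal Smpd3 in Del(CBS1-2) ran from -2.60 to -1.55, and proximal Smpd3 in Del(CBS1-3) from -0.60 (without its embryo 2) to 0.77. The mean without Del(CBS1-2) and Del(CBS1-4) was chosen after seeing the data. Smpd3 rests on 0 to 22 reads per distal library, which limits its distal values. Between genotypes of 1 tissue the replicate numbers share only a number.

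Counts of called genes depended on the settings. Without a filter on low counts they were, for Del(CBS1) to Del(CBS1-5) in order of sites, 361, 2151, 551, 1073 and 633 in distal and 250, 1367, 462, 881 and 362 in proximal tissue, and 29, 314, 111, 272 and 94 for the distal change unlike the proximal one. DESeq2 called 70 genes in distal Del(CBS1), 145 in Del(CBS1-3), 297 in Del(CBS1-4) and 119 in Del(CBS1-5). In proximal tissue it called 19, 519, 145, 98 and 30, and for the difference between tissues 102 in Del(CBS1-2) and 13 in Del(CBS1-4). With limma there were 1, 884 and 4 in distal Del(CBS1), Del(CBS1-2) and Del(CBS1-5), 43, 6 and 3 in proximal Del(CBS1-2), Del(CBS1-3) and Del(CBS1-5), and 0 for the difference between tissues in Del(CBS1-2). With the replicate block there were 1 in distal Del(CBS1), 6 in distal Del(CBS1-5), 64 in proximal Del(CBS1-2), and 116, 0 and 7 for the difference between tissues in Del(CBS1-2), Del(CBS1-3) and Del(CBS1-4). With sex there were 1 in distal Del(CBS1), and 3, 75 and 0 in proximal Del(CBS1), Del(CBS1-2) and Del(CBS1-3). The cause of these shifts was not tested.

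With single libraries left out, distal counts ran from 1 to 40 in Del(CBS1), 607 (without distal Del(CBS1-2) embryo 2) to 1439 in Del(CBS1-2), 1 to 169 in Del(CBS1-3), 6 to 525 in Del(CBS1-4) and 2 to 320 in Del(CBS1-5). Proximal counts ran from 1 to 15, 30 (without proximal Del(CBS1-2) embryo 1) to 291 (without proximal WT embryo 2), 0 to 52, 0 to 293 and 2 to 47 in the same order. Counts for the difference between tissues ran from 0 to 12 in Del(CBS1-2), 0 to 1 in Del(CBS1-3), 1 to 12 in Del(CBS1-4), and stayed at 0 in Del(CBS1) and Del(CBS1-5). Of the 12 list genes called against WT, Smpd5, Nrp2 and Sgms2 missed the threshold with the block and, together with Gria1, with sex in the fit. Smpd5 and Gria1 missed it in DESeq2, Smpd5, Slc20a1 and Nsg1 without the filter, and Slc20a1, Hmmr, Nrp2, Hap1 and Sgms2 in limma.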
